A study of Arabidopsis thaliana with 6 samples.

Results

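The plastid genome of Arabidopsis thaliana encodes part of the NADH dehydrogenase-like (NDH) complex. The 10 genes described here, ndhA, ndhC, ndhD, ndhE, ndhF, ndhG, ndhH, ndhI, ndhJ and ndhK, are those that the platform annotation names for exactly 1 gene each. They were represented by 10 probe sets, 1 per gene, out of 22746 probe sets that are no controls and 13356 genes named by the annotation. The ndhB gene, which lies in both copies of the inverted repeat, was left out because its probe set is annotated to both copies. The genes were chosen for their function and their place in the plastid genome and not by a measured value, although results of these data were known when they were chosen.

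RNA came from whole seeds at growth stage 0.7, a stage of late germination, and was hybridised to ATH1 arrays. A group of 3 arrays came from double mutants carrying T-DNA inserts in both At2g22780 and At5g09660, the genes of the peroxisomal malate dehydrogenases PMDH1 and PMDH2. The group it was set against, also of 3 arrays, held Col-0 wild-type plants that segregated out of a line heterozygous for an insertion. Whether the double mutant is in Col-0 as well is not stated in the labels. All seeds had been stratified for 2 days at 4 °C on agar with half-strength Murashige and Skoog medium and 1% sucrose, and grown in continuous light at 22 °C. The labels state neither how much each part of the seed contributed to the RNA nor whether replicates came from separate plants. A p-value here thus reflects only how these samples vary, possibly for technical reasons. The annotation names no probe set for either disrupted gene, so the genotype labels were not checked against their transcripts.

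The NDH complex sits in the thylakoid membrane of chloroplasts. It takes electrons from reduced ferredoxin, passes them to plastoquinone and moves protons across the membrane, and so contributes to cyclic electron flow around photosystem I and to chlororespiration. It resembles respiratory complex I, with a membrane arm (ndhA to ndhG) and an arm reaching into the stroma (ndhH to ndhK among the plastid genes), and needs further subunits encoded in the nucleus. Its plastid genes are transcribed in clusters. The genes ndhC, ndhK and ndhJ form one, the genes ndhH, ndhA, ndhI, ndhG, ndhE, psaC and ndhD another, and ndhF stands apart. Per the TAIR10.1 annotation the genes of each cluster are direct neighbours. No letters of these genes or of their probes were in the sources used here.

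The values are MAS5 signals on a linear scale, and arrays were scaled to a common trimmed mean of 100 (2% trimmed at each end). Single signals of different probe sets are not set against each other. Means, differences of means and sums over several probe sets are compared only between arrays. In sums of linear signals the brightest probe sets weigh most. Fold changes are double mutant minus wild-type segregant on a log2(signal + 10) scale, on which dim genes show too small a change, and an SE is limma's moderated one. Of the 10 genes, 8 passed the filter on dim probe sets and were tested, and ndhF and ndhH did not. With 3 arrays in each group, the number of arrays limits the precision of every value. In whole seeds, fewer cells that hold green plastids and less plastid RNA per cell cannot be told apart. Over all probe sets tested, 3.78% were called, 1.82% lower and 1.96% higher in the mutant, at a limma adjusted p under 0.05.

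Among the NDH genes tested, ndhC, ndhD, ndhJ and ndhK were lower in the double mutant, by 1.75-fold to 1.91-fold, and 0 were higher. These 4 are also the tested NDH genes whose mutant and wild-type signals did not overlap, a pattern toward lower values that 8.8% of all probe sets tested showed. The other 4 tested genes, ndhA, ndhE, ndhG and ndhI, had negative log2 fold changes with unadjusted p under 0.05 but did not pass after adjustment. Without mutant replicate 1 the number called lower was 7, with ndhA (−1.30), ndhE (−0.74) and ndhI (−0.86) in addition. In that fit 188 of all 13648 probe sets tested were called lower. Without the filter on dim probe sets ndhC and ndhJ were no longer called (adjusted p = 0.0703 and 0.0563 in limma). The mutant replicate 3 array had the lowest signal of the 6 arrays for 9 of the 10 NDH genes. This was so for 33 of the 54 other plastid-encoded probe sets tested (61.1%) and for 11.3% of all probe sets tested. The exception was ndhC, lowest in mutant replicate 2.

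In the membrane arm, ndhC encodes a small hydrophobic subunit near the junction with the stromal arm. Its signals were 389, 230.3 and 311 in the mutant arrays, against 548, 509 and 557.5 in the wild-type arrays. Every mutant signal lay below every wild-type signal, and the mutant arrays were spread more widely, with a mean of 310.2 ± 79.4 in the mutant and 538 ± 25.7 in the wild type (SD, n = 3 each). The log2 fold change was −0.81 (SE 0.15, limma adjusted p = 0.00536).

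The ndhD product is a large proton-pumping subunit of the membrane arm, and its transcript is known to need RNA editing to gain a start codon. Signals of ndhD were 964, 915 and 889 in the mutant arrays, against 1319, 1879 and 1910.3 in the wild-type arrays. The groups did not overlap, and here the wild-type arrays were the more variable ones, with means of 923 ± 38.1 in the mutant and 1703 ± 333 in the wild type (SD, n = 3 each). The log2 fold change was −0.86 (SE 0.13, limma adjusted p = 0.000768), a 1.81-fold lower level.

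The products of ndhA, ndhE and ndhG are hydrophobic membrane subunits, of which NdhA lies at the quinone site. For ndhA the signals were 138, 86.9 and 30.9 in the mutant and 179, 137 and 125 in the wild type, so that mutant replicate 1 lay within the wild-type range. For ndhE they were 144, 98.4 and 64.7 in the mutant and 156, 134 and 132 in the wild type, with the same overlap. For ndhG they were 47.7, 46.2 and 18.9 in the mutant and 98.7, 66.3 and 42.0 in the wild type, where wild-type replicate 3 lay below a pair of mutant arrays. In all 3 genes mutant replicate 3 was the lowest array. The log2 fold change of ndhA was −0.89 (SE 0.31, limma adjusted p = 0.138), that of ndhE −0.48 (SE 0.20, adjusted p = 0.22) and that of ndhG −0.74 (SE 0.27, adjusted p = 0.157). Without mutant replicate 3 these values were −0.38, −0.22 and −0.41.

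The ndhF gene encodes the outermost proton-pumping subunit of the membrane arm, and its probe set was dim. Signals were 13.0, 5.94 and 5.34 in the mutant, against 26.6, 27.2 and 10.2 in the wild type. A pair of mutant signals lay below the pseudocount of 10, and mutant replicate 1 lay above wild-type replicate 3. In a fit without the filter the log2 fold change was −0.76 (SE 0.28, limma adjusted p = 0.311).

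**Figure D1:**
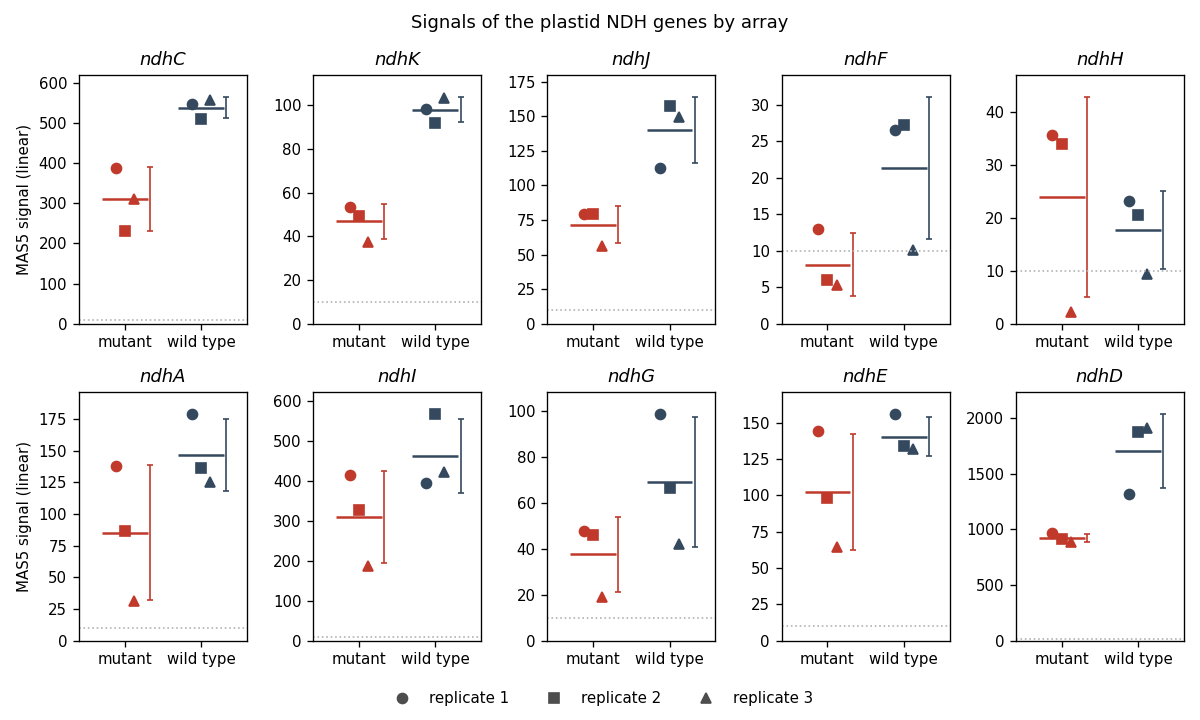
MAS5 signal (linear axis from 0, a different scale in each panel) of the 10 plastid NDH genes, with 1 point per array, mutant left and wild type right, a line at the mean of 3 arrays and a bar of ± 1 SD beside it. The dotted line is the pseudocount of 10. For ndhC, ndhD, ndhJ and ndhK all 3 mutant points lie below all 3 wild-type points, and in 9 panels the triangle of mutant replicate 3 is the lowest point.

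In the stromal arm, ndhK encodes the subunit that carries the iron-sulphur cluster next to the quinone site. Its signals were 53.4, 49.4 and 37.6 in the mutant arrays, against 98.2, 92.0 and 103 in the wild-type arrays. The groups were well apart, the highest mutant signal lying below the lowest wild-type signal, with means of 46.8 ± 8.20 in the mutant and 97.8 ± 5.72 in the wild type (SD, n = 3 each). The log2 fold change of −0.93 (SE 0.15, limma adjusted p = 0.00119) corresponds to a 1.91-fold lower level.

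The ndhJ product is a stromal subunit without cofactors. Signals of ndhJ were 79.0, 79.6 and 55.9 in the mutant, against 113, 157 and 149.6 in the wild type. The groups did not overlap, with means of 71.5 ± 13.5 in the mutant and 139.8 ± 23.7 in the wild type (SD, n = 3 each). The log2 fold change was −0.88 (SE 0.16, limma adjusted p = 0.00419).

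The ndhI product carries iron-sulphur clusters that pass electrons on toward NdhK. Signals of ndhI were 413, 327 and 186 in the mutant, against 394, 566 and 421 in the wild type. Mutant replicate 1 lay above wild-type replicate 1, so the groups overlapped. The log2 fold change was −0.62 (SE 0.21, limma adjusted p = 0.132), and it was −0.30 without mutant replicate 3.

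The ndhH product helps to form the quinone site, and its probe set was dim. Signals were 35.5, 33.9 and 2.23 in the mutant, against 23.1, 20.6 and 9.35 in the wild type. Mutant replicates 1 and 2 were the highest arrays and mutant replicate 3 the lowest. Without the filter the log2 fold change was 0.11 (SE 0.49, limma adjusted p = 0.96), and without mutant replicate 3 the gene passed the filter, at 0.73 (adjusted p = 0.162). At the deposited scaling this was the only NDH gene with a positive value.

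Both arms and the larger gene cluster held genes that were lower and genes that did not pass. In the ndhC, ndhK and ndhJ cluster all 3 genes were lower, with log2 fold changes between −0.93 and −0.81. Of all probe sets tested 1.82% were called lower, and of the other plastid-encoded ones 55.6%. In the cluster that runs from ndhH to ndhD, 1 of the 5 tested NDH genes was lower, ndhD, and the range was −0.89 to −0.48. Without mutant replicate 1 the count in that cluster was 4 of 5, with ndhA, ndhE and ndhI in addition, while 188 of all 13648 probe sets tested were called lower. The difference between the clusters was not tested. The point estimates overlap. The spread among mutant arrays was wider for ndhA, ndhI, ndhG and ndhE than for any gene of the other cluster, and smallest for ndhD. The SD of their log2 values was 0.94 for ndhA, 0.57 for ndhI, 0.57 for ndhG, 0.52 for ndhE and 0.059 for ndhD in the cluster from ndhH to ndhD. In the other cluster it was 0.37 for ndhC, 0.25 for ndhJ and 0.22 for ndhK.

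The mean log2 value of ndhA, ndhI, ndhG and ndhE was 7.26, 6.89 and 6.01 in mutant replicates 1, 2 and 3, against 7.59, 7.45 and 7.17 in the wild-type replicates. That of ndhC, ndhK and ndhJ was 7.03, 6.76 and 6.65 in the mutant, against 7.61, 7.69 and 7.76 in the wild type. The mean in mutant replicate 3 thus lay far below the other mutant arrays for the first set and close to mutant replicate 2 for the second. Within the second set the genes differed. Mutant replicate 3 was the lowest array for ndhK (53.4, 49.4 and 37.6 in mutant replicates 1 to 3) and ndhJ (79.0, 79.6 and 55.9). For ndhC mutant replicate 2 was the lowest (389, 230.3 and 311). The first set leaves out ndhD, of the same cluster, with mutant signals of 964, 915 and 889. For ndhD mutant replicate 3 lay close to the other mutant arrays. Across the 10 NDH genes its log2 value lay below the mean of the other mutant arrays by a median of −0.62 (replicate 3 minus that mean), against −0.27 over the other 54 plastid-encoded probe sets tested and −0.0053 over all probe sets tested. On this array the control probe sets for the 3′ end over those for the 5′ end gave log2 ratios of 2.71 for actin, where the other arrays had 2.37 to 3.15, −0.063 for GAPDH (others −0.47 to −0.18) and 1.19 for ubiquitin (others 1.08 to 1.52).

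**Figure D2:**
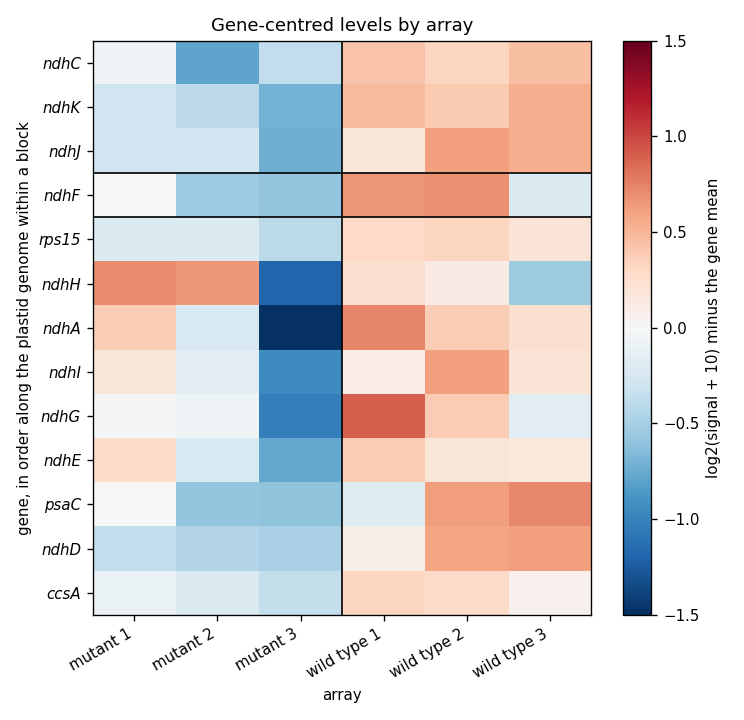
Log2(signal + 10) minus each gene's mean over the 6 arrays (colour), for NDH genes and plastid neighbours (rows, in order along the plastid genome within each block) by array (columns, mutant left and wild type right). The columns of mutant replicates 2 and 3 are mostly blue and the wild-type columns mostly red. In mutant replicate 1 ndhH, ndhA, ndhI and ndhE lie above their gene means. From ndhH to ndhE the deepest blue is in mutant replicate 3.

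Genes that neighbour the NDH genes were measured as well. The gene psaC, which encodes the terminal iron-sulphur protein of photosystem I, lies between ndhE and ndhD. Its signals were 369, 243 and 238 in the mutant, against 323, 572 and 612 in the wild type. It was lower by −0.78 (SE 0.21, limma adjusted p = 0.0455), although mutant replicate 1 lay above wild-type replicate 1, and the call was lost in 12 of the 16 alternatives run, among them the fits that left out mutant replicate 2 (−0.69), mutant replicate 3 (−0.67), wild-type replicate 2 (−0.66) and wild-type replicate 3 (−0.62). Upstream of ndhH, the ribosomal protein gene rps15 was lower by −0.54 (SE 0.12, adjusted p = 0.0212), and beyond ndhD, ccsA, a cytochrome assembly gene, was lower by −0.45 (SE 0.10, adjusted p = 0.0207). Leaving out any single mutant array (−0.57, −0.58 and −0.47 for replicates 1 to 3), wild-type replicate 2 (−0.51) or wild-type replicate 3 (−0.58) ended the call of rps15, as did dropping the filter (adjusted p = 0.0549). The call of ccsA was lost in 7 of the 16 alternatives, among them quantile normalization (−0.33, adjusted p = 0.0849), no trend (adjusted p = 0.106), no filter (adjusted p = 0.122) and leaving out mutant replicate 2 (−0.45), mutant replicate 3 (−0.38) or wild-type replicate 2 (−0.42). The ribosomal protein gene rpl32, beside ndhF, did not pass, at −0.25 (SE 0.22, adjusted p = 0.61).

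**Figure D3:**
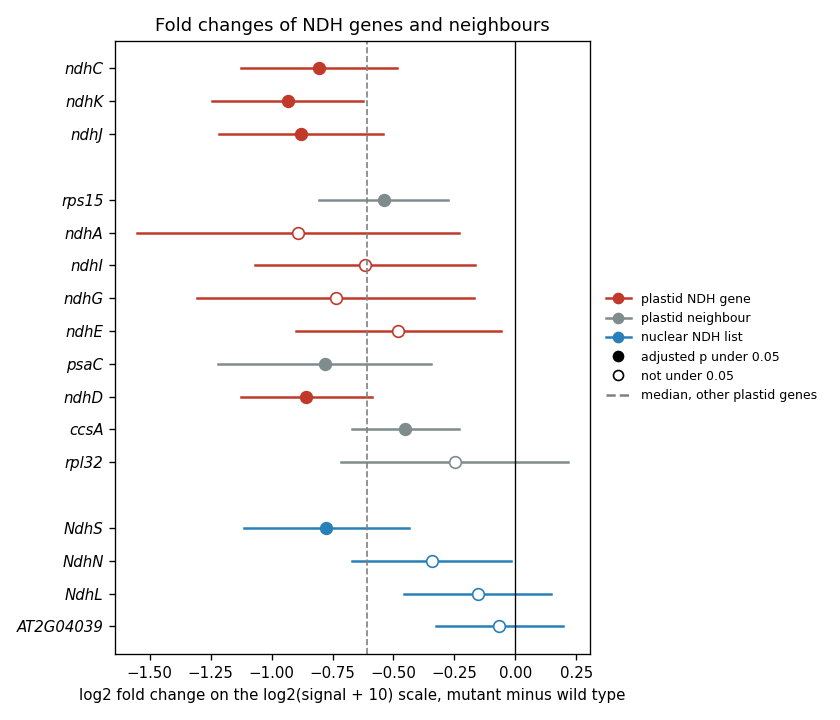
Log2 fold change (horizontal axis, double mutant minus wild-type segregant) with limma's 95% interval, for the tested plastid NDH genes (red), their plastid neighbours (grey) and the nuclear NDH list (blue). Filled points have an adjusted p under 0.05, and the dashed line is the median of the other plastid-encoded probe sets, −0.61. The intervals of ndhC, ndhJ and ndhD include that line and that of ndhK ends beside it, at −0.63.

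The NDH genes were set beside the rest of the plastid genome, represented by 59 further probe sets that each name 1 gene, 54 of them tested. Of these, 30 (55.6%) were lower and 0 higher, against 4 of the 8 tested NDH genes (50.0%). The median log2 fold change was −0.83 over the 8 NDH genes, −0.61 over the other 54 and 0.048 over all probe sets tested. Without mutant replicate 3 the NDH median was −0.41, over 9 genes with ndhH among them. By function the medians were −0.94 for the 5 tested genes of the cytochrome b6f complex, −0.78 for the 5 of photosystem I and −0.70 for the 3 of the plastid RNA polymerase. They were −0.66 for the 14 of photosystem II, −0.57 for the 5 of ATP synthase and −0.38 for the 14 of ribosomal proteins. For the 8 tested plastid genes outside these groups the median was −0.49. All 62 plastid-encoded probe sets tested had negative values, the smallest in size −0.06 for rpl22, and the NDH values lay inside the range of the others.

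**Figure D4:**
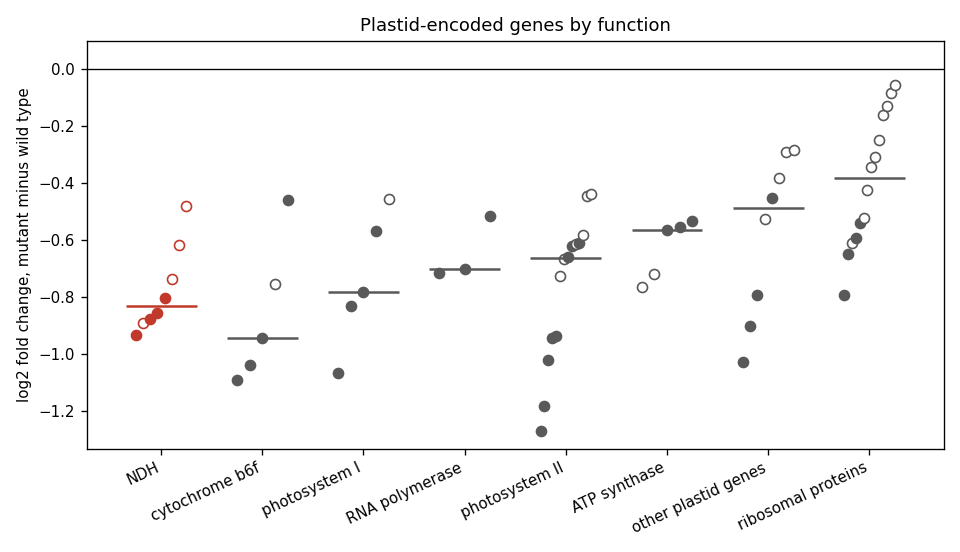
Log2 fold change (vertical axis, double mutant minus wild-type segregant) of each tested plastid-encoded gene, grouped by function, with a line at the group's median. Filled points have an adjusted p under 0.05. The NDH genes (red) lie between −0.93 and −0.48, within the range of photosystem II genes, −1.27 to −0.44.

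With each array centred on the mean of the 59 other plastid-encoded probe sets, no NDH gene was called lower. At this scaling 0.293% of all probe sets tested were called lower. The value relative to the other plastid genes was −0.32 for ndhK (limma's 95% interval −0.72 to 0.085, adjusted p = 0.131), −0.27 for ndhA (−0.67 to 0.12), −0.26 for ndhJ (−0.65 to 0.13), −0.24 for ndhD (−0.60 to 0.12), −0.19 for ndhC (−0.57 to 0.20) and −0.12 for ndhG (−0.53 to 0.30). It was 0.0031 for ndhI (−0.38 to 0.39) and 0.14 for ndhE (−0.25 to 0.53). Adjusted p-values of the 8 genes lay between 0.131 and 0.988, and the intervals still allow a further lowering by up to 0.72 on the log2 scale for ndhK. In this fit limma's prior degrees of freedom were infinite. Each SE thus came from the trend of variance with intensity over all probe sets, without the gene's own spread. The SEs of the 8 genes were 0.18 to 0.21, against 0.13 to 0.31 at the deposited scaling. The intervals and the lack of calls rest on that shared variance, so they do not show an equal lowering.

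The mean log2 value of all 10 NDH genes was 7.01, 6.72 and 6.13 in the mutant arrays, against 7.38, 7.39 and 7.15 in the wild-type arrays. The mean of the other 59 was 8.11, 7.86 and 7.72 in the mutant, against 8.44, 8.64 and 8.47 in the wild type. The NDH mean minus the other mean was −1.09, −1.14 and −1.59 in the mutant, against −1.06, −1.25 and −1.32 in the wild type. That difference overlapped between the genotypes and averaged −1.28 ± 0.27 in the mutant and −1.21 ± 0.13 in the wild type (SD, n = 3 each). Mutant minus wild type it was −0.066, and with 1 array left out it was −0.16 to 0.091, the value of 0.091 being that without mutant replicate 3 and −0.16 that without mutant replicate 1. Without a pseudocount it was −0.16. The 10 genes include ndhF and ndhH, which did not pass the filter. Over the 8 tested NDH genes the mean log2 value changed by −0.77 and over all 10 by −0.69, against −0.62 over the other 59. Of those 59 only 54 passed the filter, so the −0.77 and the −0.62 are for sets not filtered alike. The median log2 value of all probe sets ran the other way, at 5.60 ± 0.021 in the mutant and 5.51 ± 0.040 in the wild type (SD, n = 3 each).

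**Figure D5:**
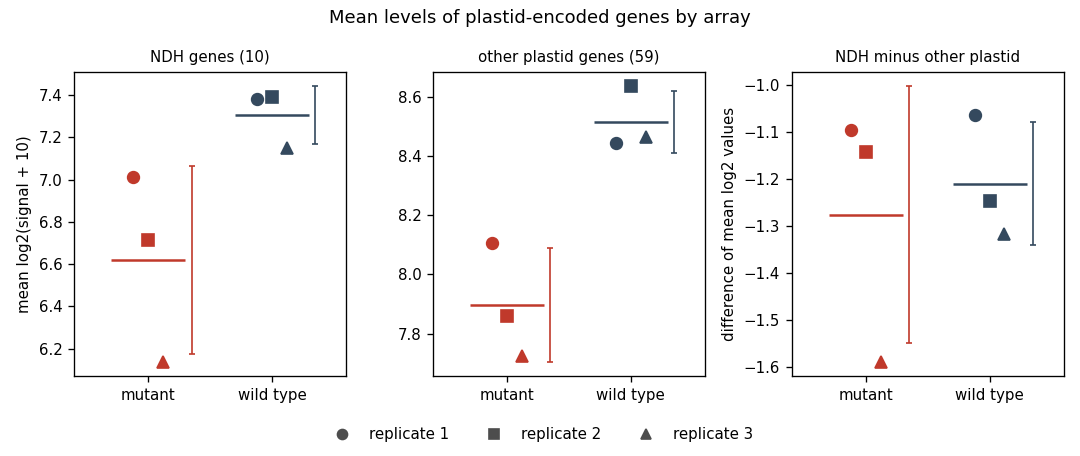
Mean log2(signal + 10) by array for the 10 NDH genes (left) and the other 59 plastid-encoded probe sets (middle), and the difference of these means (right), with 1 point per array, a line at the group mean and a bar of ± 1 SD. The vertical axes do not start at 0. Mutant arrays lie below wild-type arrays on the left and in the middle, and the groups overlap on the right, where mutant replicate 3 is lowest at −1.59.

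Of the 20 listed genes for nuclear-encoded subunits and linker proteins of the complex, 4 were measured and all 4 were tested. NdhS, a stromal subunit at the ferredoxin-binding side, was lower. Its signals were 172, 102 and 156 in the mutant, against 232, 239.9 and 271 in the wild type. The groups did not overlap, and the log2 fold change was −0.78 (SE 0.16, limma adjusted p = 0.0106). This call was lost without wild-type replicate 3 (−0.71, adjusted p = 0.0602) and without the filter (adjusted p = 0.0893). NdhN, a stromal subunit, was at −0.34 (SE 0.15, adjusted p = 0.263), NdhL, a membrane subunit, at −0.16 (SE 0.14, adjusted p = 0.63) and AT2G04039, placed on the list by its locus, at −0.07 (SE 0.12, adjusted p = 0.834), none of them passing.

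Genes for the making of the complex were measured in small part. AT5G52780, placed on the list by its locus, was the gene measured of 6 listed for assembly and was at −0.48 (SE 0.15, limma adjusted p = 0.0832), with no overlap between groups, and it passed in 3 of the 16 alternatives, among them median centring (−0.57) and the fit without wild-type replicate 1 (−0.63). Of 9 listed factors for processing and editing of NDH transcripts, 5 were measured and 4 tested, with 0 called by limma, 0 of them having an unadjusted p under 0.05. CRR21, which edits ndhD, was at 0.24 (SE 0.17), CRR22, which edits ndhD among other sites, at −0.15 (SE 0.21), OTP84, which edits ndhF among other sites, at −0.15 (SE 0.15), and CRR28 at 0.07 (SE 0.18). Of 8 listed sigma factors and phage-type polymerases, AT5G15700 alone was measured and fell below the filter, with signals of 13.1 to 31.3 in the mutant, against 7.07 to 15.2 in wild-type arrays. PGRL1B, of the other route of cyclic electron flow, was the gene measured of 4 listed and did not pass, at −0.08 (SE 0.16, adjusted p = 0.856).

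Marker lists were drawn up with results of these data known, so their counts are given as a description. The measured genes of a nuclear photosynthesis list were lower in the mutant and most measured genes of a seed maturation list higher. No listed root hair or dividing-cell gene passed. In the list of nuclear photosynthesis genes of green tissue, 4 of 6 were measured and all 4 were lower, against 1.82% of all probe sets tested. Their values lay between −0.80 for LHCB4.2 and −0.49 for RCA, with PSAN at −0.56 and LHCB4.1 at −0.50. LHCB4.1 was no longer called when replicate 2 of the mutant (−0.38) or of the wild type (−0.47) was left out, or under quantile normalization (−0.36, adjusted p = 0.0697). Without the trend LHCB4.1 and RCA lost their calls (adjusted p = 0.0871 and 0.068), as they did without the filter (adjusted p = 0.114 and 0.0703). Their summed signal was 4787 to 5328 in the mutant, against 7125 to 7823 in wild-type arrays. In the list of late embryo and seed maturation genes, 5 of 12 were measured and 4 of them were higher, against 1.96% of all probe sets tested. The summed signal of the 5 was 623 to 734 in the mutant, against 103 to 132 in wild-type arrays. Of these genes M17 was close to 0 in the wild type, with signals of 139 to 171 in the mutant, against 0.22 to 6.09 in wild-type arrays. The oleosin gene OLEO3 went the other way and did not pass, at −0.30 (SE 0.14, limma adjusted p = 0.309), with signals of 38.9 to 49.0 in the mutant, against 53.7 to 58.5 in wild-type arrays, without overlap. Summed signals overlapped for root hair genes (2 of 4 measured, 535 to 642 in the mutant, against 541 to 684 in wild-type arrays) and for genes of dividing cells (3 of 5 measured, 364 to 395 in the mutant, against 350.4 to 409.7 in wild-type arrays), with 0 called by limma, of which 0 had an unadjusted p under 0.05. The 1 endosperm gene listed was not measured. The part of these markers in the lower NDH signals was not tested.

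Genes whose profile over the 6 arrays was most like that of the NDH genes were found among 7323 tested probe sets that name 1 gene. Likeness was the root mean square difference between a gene's centred log2 values and the mean centred profile of the 8 tested NDH genes. The 5 most alike were psbH (0.111), AT2G20560 (0.115), atpA (0.135), psbF (0.136) and AT1G74940 (0.156). The NDH genes themselves lay between 0.154 for ndhK and 0.348 for ndhA. Of the 20 most alike probe sets 10 were plastid-encoded, rps15 among them, against 54 of the 7323 searched. The genes were picked for this likeness over the same 6 arrays, and their fold changes are given as a description, between −0.73 for psbF and −0.53 for atpA over the first 5 and between −0.86 for AT5G44440 and −0.45 for psbJ over all 20.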

How the data were processed

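Each of the 6 samples has 1 array, and its group and replicate number follow the labels. Values were deposited as linear probe-set intensities from MAS5, per the submitters' processing notes, which name no version. Each signal was converted to log2(signal + 10), the 64 controls were dropped, and 13648 probe sets with a mean log2 value of at least 5.02 (the 40th percentile) were fitted with limma 3.58.1 in R 4.3.3, using eBayes with an intensity trend and no covariate. A call is a two-sided Benjamini-Hochberg adjusted p under 0.05 over all probe sets tested. From 24.2% to 27.0% of an array's signals lay below the pseudocount.

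Gene names came from the platform annotation, brought to TAIR10.1 by gene identifier for 13436 of the 13513 probe sets with 1 gene. Because 8730 probe sets have no name here, lists were measured in part. Earlier results of these data were known when the NDH genes, lists and tests were chosen. The text names all NDH genes, measured nuclear subunits, plastid neighbours and the 5 most alike profiles, and from other lists at most 4 genes by p, with marker lists mainly as sums. In 20 simulated data sets for this comparison (13648 probe sets, 200 changed) 42.3% of log2 changes of 0.5, 98.0% of 1 and 100% of 2 were recovered, with 6.42% of calls false. Simulated probe sets varied independently with normal errors. Alternatives concerned the pseudocount, filter, scaling, variance model, replicate block and leaving out each array.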

Additional observations from a re-analysis of the deposited data

How the results depend on the processing

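All 16 alternatives were planned. Of 127 refitted values of the 8 tested NDH genes, 114 stayed on the same side of the threshold with the same sign, 6 were no longer called, 5 were newly called and 2 had the opposite sign. The genes ndhD and ndhK were called in each alternative other than plastid centring, with adjusted p-values of 1.23e-05 to 0.0333 for ndhD and 0.000312 to 0.0254 for ndhK, while ndhC and ndhJ also lost the call without the filter (adjusted p = 0.0703 and 0.0563). All 4 were called again without any 1 array. Without the filter 2 NDH genes were lower, 0 nuclear subunits were lower and 228 probe sets were called in all, with 325 in all without the trend, against 516. The cause was not tested.

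Plastid centring moves the median of all probe sets by about the plastid shift, to 0.67, so 11959 probe sets were called, with 0 NDH genes lower, 0 nuclear subunits lower and 2 higher, and 3 assembly and RNA factors higher. The NDH median became −0.21. Signs turned for ndhE (0.14), ndhI (0.0031), rps15 (0.078), rpl32 (0.37), ccsA (0.17), NdhN (0.28), NdhL (0.46), AT2G04039 (0.55), AT5G52780 (0.14), OTP84 (0.47), CRR22 (0.47), RCA (0.13), PSAN (0.064), LHCB4.1 (0.12), PGRL1B (0.54) and atpA (0.085). Of the calls, 99.7% were then higher, against 51.7% at the deposited scaling and 27.4% after median centring. CRR28 turned to −0.015 under quantile normalization and −0.013 after median centring.

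With 1 array left out, the count of all calls was 258 to 705, that of NDH genes lower 4 to 7, that of nuclear subunits lower 0 to 1 and that of assembly and RNA factors lower 0 to 1. The 7 came without mutant replicate 1. The NDH median was −0.93 to −0.41, with −0.41 without mutant replicate 3, where ndhH entered the fit. Signs turned for CRR28 (−0.016 without mutant replicate 1 and −0.098 without wild-type replicate 1), rpl32 (−0.57 to 0.024 over the 6 refits) and PGRL1B (0.027) without mutant replicate 2, PGRL1B without wild-type replicate 1 (0.053) and CRR22 without wild-type replicate 3 (−0.38 to 0.015 over the 6 refits). Median centring and the replicate block each gave 1 assembly and RNA factor lower, AT5G52780 (adjusted p = 0.0409 with the block).

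The labels give the groups the same replicate numbers, but deviations of same-numbered arrays correlated at 0.037, 0.17 and 0.14, so the numbers were not taken to pair the samples, although each array correlated best with its own number. With the replicate block 686 probe sets were called, and 6 NDH genes were lower, ndhA (adjusted p = 0.0218) and ndhG (adjusted p = 0.0129) in addition.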
